A study of Mus musculus with 12 samples.

Results

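Imprinted genes are expressed mainly from the copy inherited from 1 parent, and 34 of them were followed here across the ventricles of the embryonic mouse heart. A gene was read from a probe set, the group of short probes that together give its value on the array, and only probe sets that the platform annotation pairs with a single gene symbol were used. A gene with several such sets was read from the brightest, by its mean over the 12 arrays. On this rule 32 of the 34 genes were measured, among 18194 genes in all: 27 of 28 that code for protein and 5 of 6 noncoding RNAs. Zrsr1 had no such probe set, and the only set of H19 also names Mir675, a microRNA that lies inside H19 in the RefSeq table.

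Imprints are DNA methylation marks laid down differently in egg and sperm, and they set which parental copy of the neighbouring genes stays active in the offspring. Imprinted genes lie in clusters, and in several clusters a long noncoding RNA made from the copy that carries the silent coding genes takes part in the silencing, as Airn does for Igf2r and Kcnq1ot1 for Cdkn1c. Many of the coding genes act on fetal growth, in general with paternally expressed members such as Igf2 promoting it and maternally expressed members such as Igf2r, Grb10 and Cdkn1c restraining it. The arrays do not separate the parental copies, so every value below is the sum of both.

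Ventricular tissue was taken from embryos 14.5 days post coitum and pooled, with 15 to 30 embryos to a pool, and RNA of each pool was hybridised to an Affymetrix array. The 4 groups of 3 arrays were left and right ventricle (LV and RV) of wild-type CD1 embryos (WT) and of Nos3-/- embryos of strain B6.129P2-Nos3tm1unc/J (KO), which lack a working endothelial nitric oxide synthase in every cell. The WT embryos were therefore of another strain, and the Nos3 allele and the strain cannot be told apart in any genotype difference. P-values measure the spread between pools, nothing in the labels ties an LV pool to an RV pool of the same embryos, and 3 arrays per group limit the precision. In such bulk tissue fewer cells of a type and less RNA per cell cannot be told apart.

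The values are log2 expression, so a difference of 1 is a doubling, and 5.67 is the median of all values of the table. Array medians ran from 5.57 to 5.74. Nos3 was 8.30 to 8.39 in WT LV, 8.37 to 8.94 in WT RV, 7.86 to 8.02 in KO LV and 7.77 to 8.23 in KO RV. It was lower in KO by 0.41 ± 0.14 (SE) in LV (limma adjusted p = 0.0376) and by 0.66 ± 0.14 in RV (adjusted p = 0.00983), and the exact two-sided permutation test gave its smallest possible p, 0.1, in both. The LV call was lost without any 1 of the 6 LV arrays (adjusted p up to 0.114). The 12 cardiomyocyte markers averaged 13.16 to 13.65 on the arrays, whereas 3 trophoblast markers averaged 3.94 to 4.21 and 8 neuronal markers 5.46 to 5.69. Arrays that stood apart were WT LV 2 and KO LV 3, the highest and the lowest for Kcnq1ot1 and Airn, and WT RV 3, which read lower than the other WT RV arrays for many bright coding members. The added poly-A control RNAs averaged 8.89 to 8.94 on the WT LV arrays and 8.96 on WT RV 3, against 7.35 to 8.47 on the other 8 arrays, so this control differs between WT LV and KO LV with no overlap.

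A gene is called here where limma's p, adjusted by Benjamini-Hochberg over all 18194 genes, is under 0.05. In LV, 14 of the 32 imprinted genes differed between KO and WT (43.8%), beside 30.9% of all genes. Igf2r, Asb4, Plagl1, Mest, Grb10 and Ube3a rose in KO, 6 genes beside 18.6% of all genes called higher. Kcnq1ot1, Airn, Mirg, Zim1, Usp29, Snrpn, Ascl2 and Rasgrf1 fell, 8 genes beside 12.3% of all genes called lower. The median difference of the 32 was -0.04, beside -0.01 over all genes. In RV, 2 of the 32 differed (6.25%), beside 8.19% of all genes: Asb4 rose, where 4.61% of all genes did, and Rasgrf1 fell, where 3.58% did. The plot of the genotype differences shows both ventricles gene by gene.

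**Figure D1:**
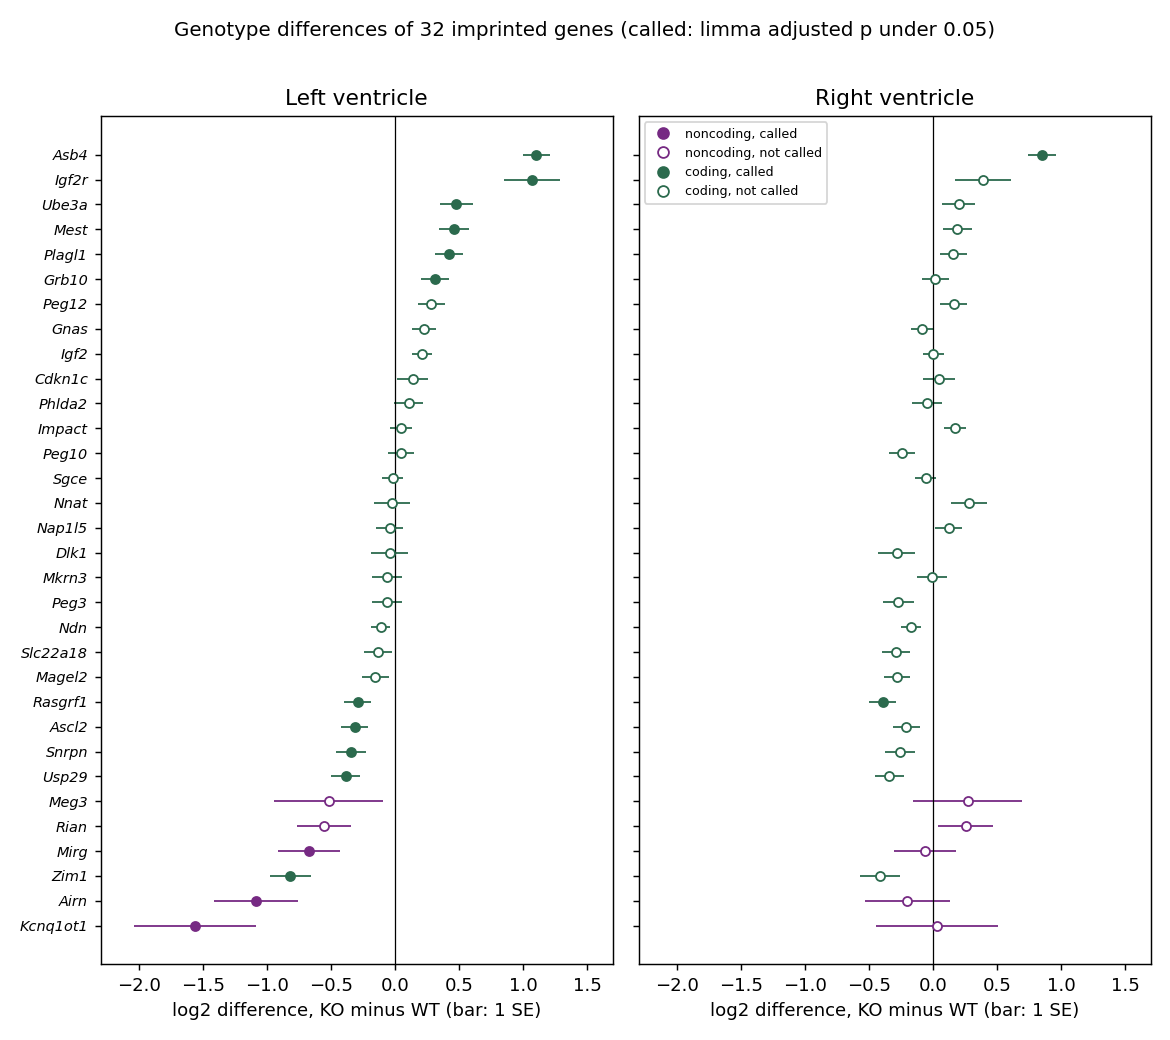
Log2 difference between KO and WT (x axis, bars 1 SE, 3 arrays against 3) of the 32 measured imprinted genes (y axis, ordered by the LV difference) in LV and RV. Filled points are called, 14 in LV and 2 in RV, and the 5 noncoding RNAs (purple) lie at the lower end in LV but not in RV.

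The LV count depended on single arrays. It was 7 without WT LV 1, 8 without WT LV 2, 7 without KO LV 2 and 9 without KO LV 3, and 17 without WT RV 3. With the poly-A control level as a term 3 members were called (Airn, Asb4 and Zim1), beside 14.1% of all genes. The split between rises and falls moved with the scaling: after each array was centred on its median 9 members rose and 3 fell, and the share of higher calls among all genes called went from 60.1% to 77.9% in LV and from 56.2% to 69.5% in RV. Quantile normalization once more gave 8 rises and 4 falls. Under both, all 6 members named as risen stayed called, as did Zim1, Kcnq1ot1 and Airn among those that fell. Apart from the poly-A setting, these counts stand without the share of all genes called, so they do not set the members apart.

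Igf2r and Airn differed in opposite directions in KO LV, and a link between these differences was not tested. Igf2r encodes the receptor that takes up and degrades IGF2 and carries lysosomal enzymes, and Airn is the antisense RNA that overlaps it and silences the paternal Igf2r copy in most tissues. Their upstream windows are shown because the genes overlap and moved in opposite directions, followed by those of Asb4 and Kcnq1ot1, with the largest rise and the largest fall in KO LV, of Zim1, whose LV call held in every alternative that measured it, and of Mest, which holds the motif searched below. Each holds the 250 bases before the RefSeq start of the gene (GRCm38.p6), 5′ to 3′ on the strand of the gene, with CpG dinucleotides, the sites at which imprints are written, in capitals. Asb4 and Mest have several starts, and the window with the most CpG is printed.
Igf2r, chr17:12769707-12769956, minus strand: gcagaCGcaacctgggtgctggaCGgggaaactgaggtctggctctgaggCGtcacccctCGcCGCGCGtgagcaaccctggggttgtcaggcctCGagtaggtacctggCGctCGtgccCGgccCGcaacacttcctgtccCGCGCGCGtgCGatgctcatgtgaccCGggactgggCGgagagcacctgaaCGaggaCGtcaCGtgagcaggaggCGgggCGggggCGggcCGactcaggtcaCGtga
Airn, chr17:12741061-12741310, plus strand: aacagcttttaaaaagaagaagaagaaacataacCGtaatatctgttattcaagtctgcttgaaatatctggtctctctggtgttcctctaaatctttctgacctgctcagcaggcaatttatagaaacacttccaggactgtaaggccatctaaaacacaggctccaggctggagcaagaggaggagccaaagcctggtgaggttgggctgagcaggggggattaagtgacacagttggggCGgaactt
Asb4, chr6:5390160-5390409, plus strand: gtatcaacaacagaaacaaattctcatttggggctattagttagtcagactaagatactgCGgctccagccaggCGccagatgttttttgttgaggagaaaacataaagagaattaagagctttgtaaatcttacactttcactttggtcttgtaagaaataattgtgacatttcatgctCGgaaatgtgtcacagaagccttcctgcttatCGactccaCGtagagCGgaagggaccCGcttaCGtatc
Kcnq1ot1, chr7:143296548-143296797, minus strand: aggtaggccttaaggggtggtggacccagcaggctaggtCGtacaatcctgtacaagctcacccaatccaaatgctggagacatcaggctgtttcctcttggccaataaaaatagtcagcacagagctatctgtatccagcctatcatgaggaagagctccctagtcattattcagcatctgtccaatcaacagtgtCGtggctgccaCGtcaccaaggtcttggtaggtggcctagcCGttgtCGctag
Zim1, chr7:6696433-6696682, minus strand: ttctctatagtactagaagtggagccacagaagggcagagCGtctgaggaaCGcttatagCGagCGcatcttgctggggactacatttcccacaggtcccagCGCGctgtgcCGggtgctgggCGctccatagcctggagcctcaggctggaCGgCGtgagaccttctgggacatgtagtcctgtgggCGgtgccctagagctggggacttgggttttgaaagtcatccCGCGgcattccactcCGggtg
Mest, chr6:30737800-30738049, plus strand: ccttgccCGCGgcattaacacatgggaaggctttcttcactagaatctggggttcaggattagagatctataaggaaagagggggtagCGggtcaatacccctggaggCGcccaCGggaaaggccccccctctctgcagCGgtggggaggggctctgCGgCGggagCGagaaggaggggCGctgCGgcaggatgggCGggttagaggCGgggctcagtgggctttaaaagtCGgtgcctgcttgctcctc

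The Igf2r window holds 27 CpG, the Airn window 2, the Asb4 window 8, the Kcnq1ot1 window 5, and the Zim1 and Mest windows 14 each. Windows were found for 29 of the 34 genes (43 windows, as some genes have several starts), with a median of 10 CpG beside 6 over all 32851 windows of the table. The letters TGCCGC on either strand, the core bound by ZFP57 when methylated, occur in windows of 5 of the 29 genes (17.2%; Meg3, Mest, Nap1l5, Plagl1 and Zim1), beside 9.84% of all 27025 genes with a window. The core occurs at 2 places in the Mest window printed above, at 1 in that of Zim1 and at 0 in those of Igf2r, Airn, Asb4 and Kcnq1ot1. A match describes these letters in this window and is not a measured binding site.

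Igf2r read 12.19, 12.04 and 11.86 in WT LV, 12.67, 13.04 and 12.00 in WT RV, 13.02, 13.28 and 12.99 in KO LV, and 12.99, 13.29 and 12.61 in KO RV. All 3 WT LV arrays and WT RV 3 lie below the other 8. In LV the KO arrays were higher by 1.07 ± 0.22 (SE), 2.09-fold, with no overlap (adjusted p = 0.00286). The second probe set gave a difference of 0.99. With the poly-A control term the LV difference was 0.67 (adjusted p = 0.0573). In RV the groups overlapped by the set used and the difference was 0.39 ± 0.22 (adjusted p = 0.276). By the second set it was 0.66, without overlap: 11.54, 11.84 and 11.13 in WT RV and 12.07, 12.20 and 12.21 in KO RV.

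Airn read 10.70, 11.23 and 10.02 in WT LV, 9.93, 10.07 and 10.04 in WT RV, 10.04, 10.04 and 8.61 in KO LV, and 9.93, 9.83 and 9.68 in KO RV. Both RV groups and 3 of the 6 LV arrays lie within a narrow band, and WT LV 1 and 2 stand above it and KO LV 3 below it. The LV difference of -1.09 ± 0.33 was called (adjusted p = 0.0232), although WT LV 3 lies at the level of KO LV 1 and 2. The call was also lost without WT LV 1. Without WT LV 2 the difference was -0.80 (adjusted p = 0.104), without KO LV 3 -0.61 (adjusted p = 0.0855), and without both -0.32 (adjusted p = 0.236), while Igf2r then stayed at 1.13 (adjusted p = 0.0241). In RV the Airn difference was -0.20 ± 0.33 (adjusted p = 0.737). The other Airn sets, all dimmer, gave -0.41, -1.70, -1.78 and -0.16 in LV and -0.06, -0.15, -0.24 and 0.09 in RV.

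**Figure D2:**
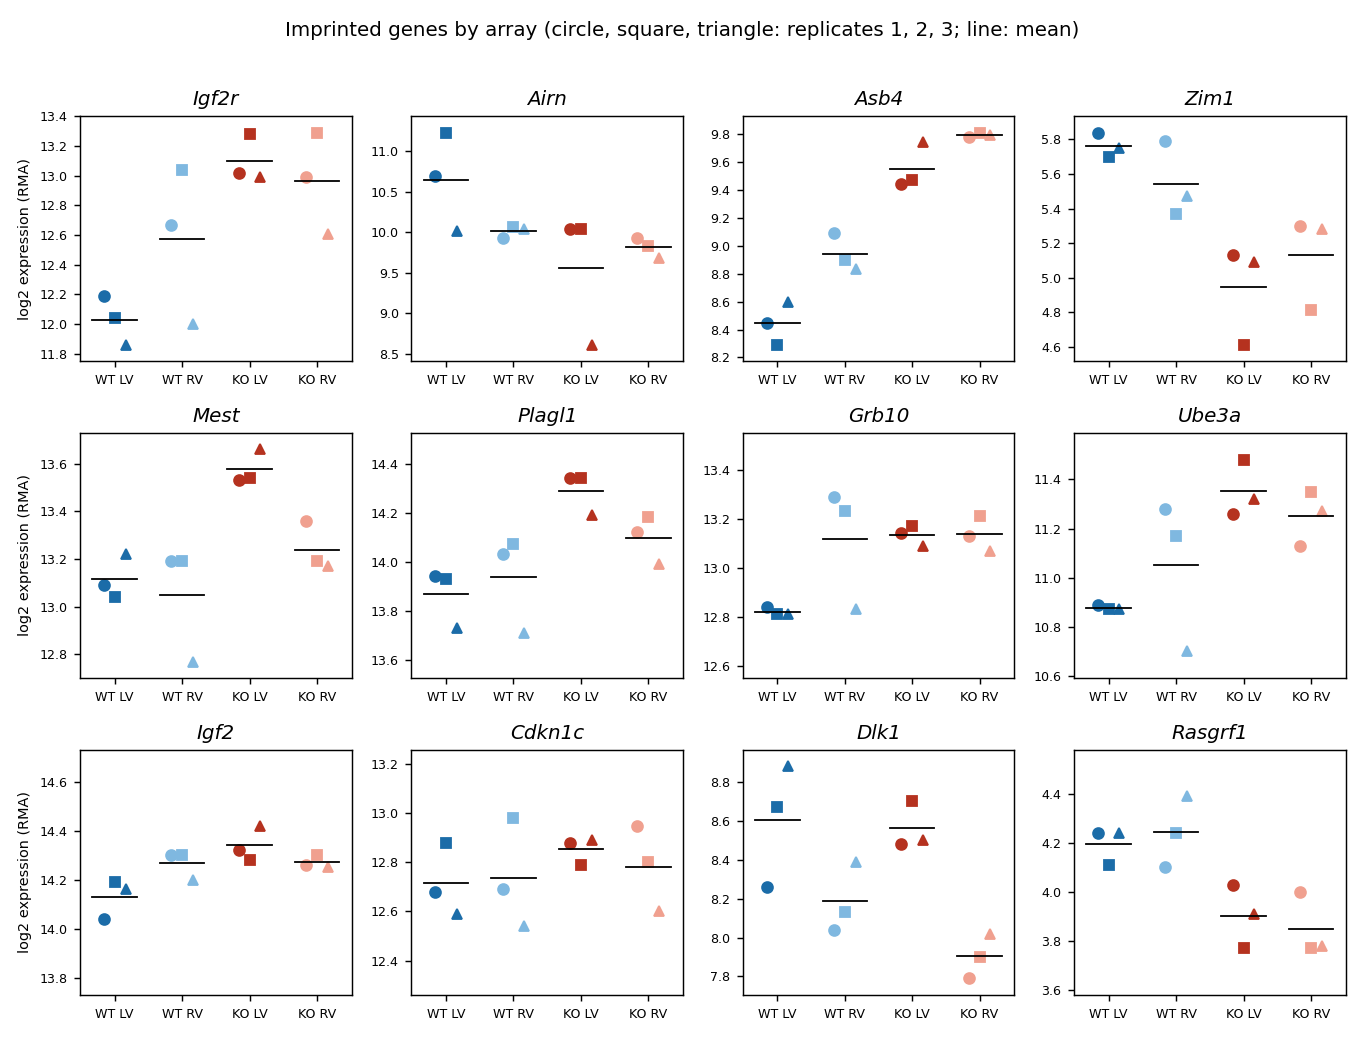
Log2 expression (y axis, each panel with its own range of at least 1) of 12 imprinted genes on every array, by group (x axis), with symbols for replicates 1 to 3 and lines for group means. Igf2r, Asb4, Mest, Plagl1, Grb10 and Ube3a lie higher in KO LV than in WT LV without overlap, and WT RV 3 (triangle) lies lowest of its group for Igf2r, Mest, Plagl1, Grb10 and Ube3a.

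Igf2 and H19 lie together on chromosome 7. Igf2, the main fetal insulin-like growth factor and a ligand of the Igf2r protein, read 14.04, 14.19 and 14.16 in WT LV, 14.30, 14.30 and 14.20 in WT RV, 14.32, 14.28 and 14.42 in KO LV, and 14.26, 14.30 and 14.25 in KO RV. The WT LV arrays are the lowest 3, and KO LV exceeded them by 0.21 ± 0.08, which was not called (adjusted p = 0.0604). The RV difference was 0.00 ± 0.08 (adjusted p = 0.987). Without WT RV 3, which narrows the shared spread, the LV difference of Igf2 was called (adjusted p = 0.0449). A second, dimmer set of Igf2 read 7.80, 7.80 and 7.73 in WT LV, 8.22, 8.48 and 7.61 in WT RV, 8.16, 8.50 and 8.28 in KO LV, and 8.29, 8.34 and 8.08 in KO RV. By this set KO LV lay 0.54 above WT LV without overlap, and in RV the groups overlapped with a difference of 0.13. The set shared by H19 and Mir675 read 14.35, 14.46 and 14.44 in WT LV and 14.58, 14.59 and 14.58 in KO LV, and 14.52, 14.61 and 14.46 in WT RV and 14.56, 14.59 and 14.46 in KO RV. It was not tested, since it names 2 genes. This set and the brighter set of Igf2 read close to the top of a scale that ends at 15.19.

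Around these genes, 9 of the 15 measured genes of the insulin-like growth factor axis (receptors, substrates, binding proteins and mRNA-binding proteins) rose in KO LV and 0 fell, beside 18.6% of all genes called higher and 12.3% lower, with a median difference of 0.48. Igfbp5, a binding protein that holds the ligands outside the cell, rose by 1.26 ± 0.21 (adjusted p = 0.000925), and Igf2bp1, which binds Igf2 mRNA, by 0.85 ± 0.15 (adjusted p = 0.00108). In RV 2 of the 15 rose, beside 4.61% of all genes, the binding proteins Igfbp3 by 0.98 ± 0.09 (adjusted p = 1.81e-05) and Igfbp2 by 0.62 ± 0.12 (adjusted p = 0.00718), and 0 fell. Igfbp2 was the axis gene that differed between ventricles, lower in RV by 1.48 ± 0.12 in WT (adjusted p = 4.52e-05) and by 0.92 ± 0.12 in KO (adjusted p = 0.00126).

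Grb10, an adaptor that dampens signalling from the insulin and IGF receptors, read 12.84, 12.81 and 12.81 in WT LV, 13.29, 13.23 and 12.83 in WT RV, 13.14, 13.17 and 13.09 in KO LV, and 13.13, 13.21 and 13.07 in KO RV. The 3 WT LV arrays and WT RV 3 form a lower group at 12.81 to 12.84, and all others are at 13.07 or above. The LV difference of 0.31 ± 0.11 (1.24-fold, adjusted p = 0.0403) was lost without any 1 of the 6 LV arrays or without KO RV 1 (adjusted p up to 0.110). In RV it was 0.02 ± 0.11 (adjusted p = 0.928). The direction depends on the probe set: averaged over its 3 sets Grb10 differed by -0.08 in LV (adjusted p = 0.788).

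Asb4 was higher in KO in both ventricles under every setting tried. It encodes a substrate adaptor of a ubiquitin ligase, is expressed from the maternal copy in the Peg10 and Sgce cluster, and is known from the developing vasculature. It read 8.45, 8.29 and 8.60 in WT LV, 9.09, 8.90 and 8.83 in WT RV, 9.44, 9.47 and 9.74 in KO LV, and 9.78, 9.81 and 9.79 in KO RV. All 6 KO arrays lie above all 6 WT arrays, and in both genotypes every RV array lies above every LV array. The KO arrays were higher by 1.10 ± 0.11 in LV (2.15-fold, adjusted p = 1.91e-05) and by 0.85 ± 0.11 in RV (1.81-fold, adjusted p = 0.000289). Both calls held in all 24 alternatives run, with differences of 0.93 to 1.20 in LV and 0.78 to 0.93 in RV. The second probe set gave 1.11 and 0.74.

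Asb4 was also the member called between the ventricles of WT embryos, higher in RV by 0.49 ± 0.11 (adjusted p = 0.0483). That is 1 of 32 genes (3.12%), beside 0.984% of all genes (0.764% higher and 0.22% lower). This call held in 9 of 24 alternatives and was lost without any 1 array except WT LV 3, WT RV 3 and KO LV 3. Without WT LV 2 the difference was 0.41 (adjusted p = 0.217). In KO it was 0.24 ± 0.11 (adjusted p = 0.449). The endothelial and endocardial markers moved with Asb4 in LV, where 8 of 10 rose, beside 18.6% of all genes, and their mean went from between 8.5 and 8.77 in WT LV to between 9.23 and 9.46 in KO LV. In WT RV the mean was 8.72 to 9.19 and in KO RV 9.23 to 9.32, with 2 of 10 called higher, beside 4.61% of all genes. The part of these cells in the Asb4 differences was not tested.

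The other members of that cluster, Sgce and Peg10, were called in none of the 5 comparisons. Sgce, a membrane protein of the sarcoglycan family, differed by -0.02 ± 0.08 in LV and -0.06 ± 0.08 in RV. Peg10, a gene derived from a retrotransposon and needed in the placenta, read 3.36 to 3.85 over the 12 arrays, below the table's median. Pon3 and Calcr, imprinted genes of the same region outside the 34, are given with the other imprinted genes.

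Mest, Plagl1 and Ube3a rose in KO LV by less than Asb4 and Igf2r. Mest, a protein of the hydrolase fold made from the paternal copy, read 13.09, 13.04 and 13.22 in WT LV, 13.19, 13.19 and 12.77 in WT RV, 13.53, 13.54 and 13.66 in KO LV, and 13.36, 13.19 and 13.17 in KO RV. The KO LV arrays are the highest 3 of the 12, at 0.46 ± 0.11 above WT LV (1.38-fold, adjusted p = 0.00812). The RV groups overlap and differed by 0.19 ± 0.11 (adjusted p = 0.310).

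Plagl1, a zinc finger transcription factor that acts on other imprinted genes, read 13.94, 13.93 and 13.73 in WT LV, 14.03, 14.07 and 13.71 in WT RV, 14.34, 14.34 and 14.19 in KO LV, and 14.12, 14.18 and 13.99 in KO RV. Replicate 3 is the lowest of each group, and the LV groups do not overlap. The LV difference was 0.42 ± 0.11 (1.34-fold, adjusted p = 0.00948), but averaged over its 3 probe sets it was -0.06 (adjusted p = 0.842). In RV it was 0.16 ± 0.11 (adjusted p = 0.366).

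Ube3a, a ubiquitin ligase that is imprinted in neurons and read from both copies in most other cells, read 10.89, 10.87 and 10.87 in WT LV, 11.28, 11.17 and 10.70 in WT RV, 11.26, 11.48 and 11.32 in KO LV, and 11.13, 11.35 and 11.27 in KO RV. The WT LV arrays lie together and below every KO array, and only WT RV 3 is lower. The LV difference was 0.48 ± 0.13 (1.39-fold, adjusted p = 0.0129), and the RV difference 0.20 ± 0.13 (adjusted p = 0.344). The Ube3a call was lost with the mean of its 6 probe sets (0.19, adjusted p = 0.177) and without KO LV 2 (adjusted p = 0.0573).

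Of the Peg3 cluster, Zim1 changed most. Zim1, a zinc finger gene read from the maternal copy, read 5.84, 5.70 and 5.75 in WT LV, 5.79, 5.37 and 5.47 in WT RV, 5.13, 4.61 and 5.09 in KO LV, and 5.30, 4.81 and 5.28 in KO RV. All KO arrays lie below all WT arrays in both ventricles, on values around or below the table's median. The LV difference was -0.82 ± 0.16 (1.77-fold lower, adjusted p = 0.00206) and was called in all 23 alternatives that measured it. The RV difference was -0.41 ± 0.16 and was not called (adjusted p = 0.126), but with the replicate number as a fixed block it was (adjusted p = 0.0259; 0.0816 with a random block).

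Peg3, a zinc finger protein expressed from the paternal copy, read 12.35, 12.34 and 12.07 in WT LV, 12.33, 12.34 and 12.00 in WT RV, 12.20, 12.32 and 12.05 in KO LV, and 11.90, 12.09 and 11.87 in KO RV. The groups overlap in both ventricles, with differences of -0.06 ± 0.12 in LV (adjusted p = 0.728) and -0.27 ± 0.12 in RV (adjusted p = 0.170). Usp29, a deubiquitinating enzyme next to Peg3, read 5.01, 4.53 and 4.77 in WT LV and 4.31, 4.35 and 4.49 in KO LV, a fall of 0.39 ± 0.12 (adjusted p = 0.0221). Its RV arrays were 4.62, 4.84 and 4.77 in WT and 4.48, 4.29 and 4.44 in KO, a difference of -0.34 ± 0.12 (adjusted p = 0.0870). The genotypes do not overlap in either ventricle for Usp29. Its LV call was lost without WT LV 1, KO LV 1 or KO LV 2. The second, dimmer Usp29 set gave -0.11 in LV and 0.06 in RV.

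Snrpn, Ascl2 and Rasgrf1 fell slightly in KO LV by the sets used. Snrpn, a splicing protein, read 6.39, 6.55 and 6.61 in WT LV, 6.41, 6.56 and 6.85 in WT RV, 5.99, 6.18 and 6.34 in KO LV, and 6.37, 6.32 and 6.36 in KO RV. The LV groups are separated by 0.05 only, and the difference was -0.35 ± 0.12 (limma adjusted p = 0.0393), against -0.26 ± 0.12 in RV (adjusted p = 0.189). Sets that name both Snurf and Snrpn were not tested. The brightest of these, with means of 10.37, 10.16 and 10.18, differed by -0.30, -0.20 and 0.11 in LV. Dimmer shared sets differed by 0.25, 0.02 and 0.01. Ascl2, a transcription factor of the trophoblast, read 4.59, 4.41 and 4.57 in WT LV, 4.37, 4.61 and 4.67 in WT RV, 4.19, 4.08 and 4.35 in KO LV, and 4.35, 4.47 and 4.21 in KO RV. It differed by -0.32 ± 0.11 in LV (adjusted p = 0.0391) and by -0.21 ± 0.11 in RV (adjusted p = 0.245). Dimmer sets of Ascl2 gave -0.15 and 0.05 in LV and -0.11 and -0.10 in RV. The Snrpn call was lost without WT LV 2 or 3, KO LV 1 or 2, or KO RV 1 or 2 (adjusted p up to 0.157), and the Ascl2 call without WT LV 1 or 3, KO LV 1 or 2, or KO RV 1 (adjusted p up to 0.149).

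Rasgrf1, an exchange factor that activates Ras, was the only member called lower in KO in both ventricles. It read 4.24, 4.11 and 4.24 in WT LV, 4.10, 4.24 and 4.39 in WT RV, 4.03, 3.77 and 3.91 in KO LV, and 4.0, 3.77 and 3.78 in KO RV. The differences were -0.29 ± 0.10 in LV (adjusted p = 0.0452) and -0.39 ± 0.10 in RV (adjusted p = 0.0327), without overlap. These values sit near the bottom of a scale that starts at 2.42. The other Rasgrf1 sets, dimmer still, gave 0.03 and -0.11 in LV and 0.08 and -0.01 in RV. The LV call of Rasgrf1 held in 9 of 23 alternatives and its RV call in 12 of 23. Leaving out any WT LV array, KO LV 2 or 3, WT RV 2, or KO RV 2 or 3 ended the LV call (adjusted p up to 0.174), and WT RV 2 or 3, or KO RV 2 or 3, the RV call (adjusted p up to 0.110). The calls of Usp29, Ascl2, Rasgrf1 and Snrpn in LV were all lost after median centring or quantile normalization, with the sign kept.

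Cdkn1c and Kcnq1ot1 of the same cluster differed in unlike ways. Cdkn1c, an inhibitor of cyclin-dependent kinases that lets cells leave the cell cycle, read 12.68, 12.88 and 12.59 in WT LV, 12.69, 12.98 and 12.54 in WT RV, 12.88, 12.79 and 12.89 in KO LV, and 12.95, 12.80 and 12.60 in KO RV. The genotypes overlap in both ventricles, with differences of 0.14 ± 0.12 in LV (adjusted p = 0.436) and 0.05 ± 0.12 in RV (adjusted p = 0.844). Kcnq1ot1, the RNA that silences Cdkn1c on the paternal copy, was lower in KO LV, with the distance set by 3 arrays. It read 8.79, 9.40 and 7.92 in WT LV, 7.51, 7.69 and 7.72 in WT RV, 7.84, 7.90 and 5.67 in KO LV, and 7.47, 7.49 and 8.05 in KO RV. WT LV 1 and 2 lie above all others and KO LV 3 far below them, while the remaining 9 arrays lie between 7.47 and 8.05.

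The LV difference of Kcnq1ot1 was -1.57 ± 0.48 (2.96-fold lower, adjusted p = 0.0234). Its other 4 brighter probe sets gave -1.30 to -1.44 and the dimmest -0.18. Without WT LV 2 it was -1.22 (adjusted p = 0.0997), without KO LV 3 -0.83 (adjusted p = 0.0693) and without both -0.49 (adjusted p = 0.196), and the call was also lost without WT LV 1. In RV the difference was 0.03 ± 0.48 (adjusted p = 0.977).

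In the Dlk1 cluster the noncoding RNAs are read as a long maternal unit that holds many microRNAs and small nucleolar RNAs. Meg3 read 12.06, 11.89 and 10.82 in WT LV, 10.67, 11.15 and 11.30 in WT RV, 11.82, 11.31 and 10.09 in KO LV, and 12.08, 11.08 and 10.78 in KO RV. It spans nearly 2 log2 units, the groups overlap, and neither the LV difference of -0.52 ± 0.43 (adjusted p = 0.391) nor the RV difference of 0.27 ± 0.43 (adjusted p = 0.720) was called. All 11 probe sets of Meg3 were lower in KO LV, by -0.03 to -1.21.

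Rian, which holds small nucleolar RNAs, read 11.14, 11.10 and 10.72 in WT LV, 10.51, 10.73 and 11.10 in WT RV, 10.94, 10.35 and 10 in KO LV, and 11.23, 10.79 and 11.09 in KO RV. Its LV groups overlap and the difference was -0.56 ± 0.21 (adjusted p = 0.0629), against 0.26 ± 0.21 in RV (adjusted p = 0.470). The other Rian sets gave 0.14, -0.53 and -0.32 in LV and 0.72, 0.17 and 0.62 in RV. Mirg, a microRNA host transcript, read 7.22, 7.42 and 6.58 in WT LV, 6.65, 6.60 and 7.0 in WT RV, 6.88, 6.40 and 5.92 in KO LV, and 7.02, 6.58 and 6.47 in KO RV. The Mirg difference of -0.67 ± 0.24 in LV was called (adjusted p = 0.0491) with overlapping groups, and without KO LV 3 it was -0.43 (adjusted p = 0.212). Leaving out WT LV 1 or 2, WT RV 1 or 2, KO LV 2, or KO RV 2 or 3 also ended that call. In RV the Mirg difference was -0.06 ± 0.24 (adjusted p = 0.901). The second Mirg set gave -0.13 in LV and 0.45 in RV.

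Dlk1, a membrane protein of the Notch ligand type made from the paternal copy, read 8.26, 8.67 and 8.88 in WT LV, 8.04, 8.13 and 8.39 in WT RV, 8.48, 8.70 and 8.50 in KO LV, and 7.79, 7.90 and 8.02 in KO RV. The genotypes overlap in LV (-0.04 ± 0.14, adjusted p = 0.851), and in RV the difference was -0.28 ± 0.14 (adjusted p = 0.228). Between the ventricles of KO embryos Dlk1 was lower in RV by 0.66 ± 0.14, without overlap (1.58-fold, adjusted p = 0.0423). It was the only member called in that comparison, 3.12% of the 32 beside 1.14% of all genes (0.55% higher and 0.594% lower). The call held in 11 of 24 alternatives and was lost without WT LV 2, WT RV 2 or any 1 of the 6 KO arrays (adjusted p up to 0.194). In WT the difference was -0.42 ± 0.14 (adjusted p = 0.172). Epicardial markers averaged 8.60 to 8.93 in KO LV and 8.37 to 8.69 in KO RV, and mesenchymal markers 10.79 to 11.06 and 10.21 to 10.74. Fetal liver markers, from an organ rich in Dlk1, averaged 5.45 to 6.11 in KO LV and 6.01 to 6.72 in KO RV. Their part in the Dlk1 difference was not tested.

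Set against the coding members, the 5 measured noncoding members were lower in KO LV and far more variable. H19 is not among the 5. Its set, shared with Mir675, was 0.17 higher in KO LV without overlap, with SDs of 0.0058 to 0.0755 within groups. In LV 3 of the 5 noncoding genes were called, 0 higher and 3 lower, and 11 of the 27 coding genes (40.7%), 6 higher and 5 lower, beside 30.9% of all genes (18.6% higher and 12.3% lower). All 3 noncoding calls (Mirg, Kcnq1ot1 and Airn) were lost with the compared groups alone in the fit. They were also lost under a variance model with an intensity trend and robust variances. The median LV difference was -0.67 over the noncoding and -0.02 over the coding members, -0.65 apart. In RV the medians were 0.03 and -0.05, and 0 noncoding and 2 coding genes (7.41%) were called, beside 8.19% of all genes. The mean of the 5 noncoding genes was 9.98, 10.21 and 9.21 in WT LV, 9.05, 9.25 and 9.43 in WT RV, 9.50, 9.20 and 8.06 in KO LV, and 9.55, 9.15 and 9.21 in KO RV. WT LV 1 and 2 stand above, and KO LV 3 below, a band shared by the other 9 arrays, and the LV groups overlap between WT LV 3 and KO LV 1.

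**Figure D3:**
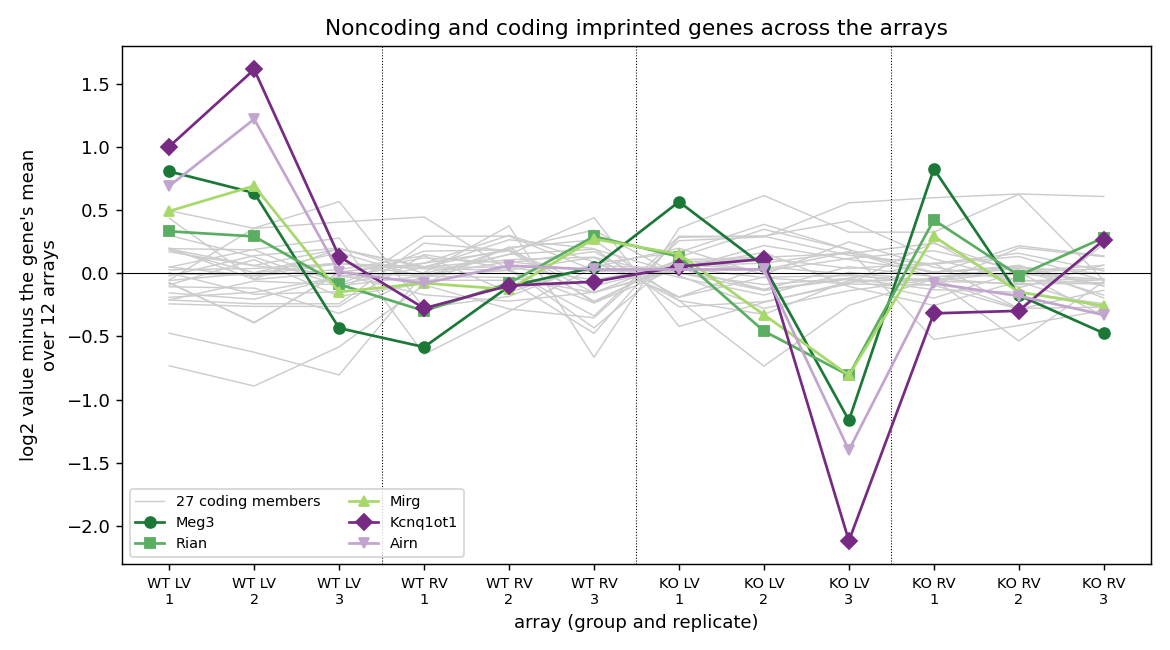
Log2 value minus the mean of the gene over the 12 arrays (y axis) for each array (x axis), with the 5 noncoding members in colour and the 27 coding members in grey. Kcnq1ot1, Airn and Mirg are highest on WT LV 2 and Meg3 and Rian on KO RV 1, and all 5 are lowest on KO LV 3, where Kcnq1ot1 reads 5.67.

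The mean of the 27 coding genes stayed between 8.47 and 8.61 on the 12 arrays. Without WT LV 2 and KO LV 3 together the LV medians of noncoding and coding members were -0.29 apart, and 0 noncoding members were called. Asb4, Igf2r and Plagl1 then remained called higher and Zim1, Usp29 and Ascl2 lower, 6 members in all. The share of all genes called without both arrays is not given here. The 20 measured noncoding RNAs outside imprinted clusters followed a like course: their mean was 8.56, 8.73 and 8.40 in WT LV and 8.31, 8.28 and 7.88 in KO LV, with the highest value again on WT LV 2 and the lowest on KO LV 3. Of these 20, 7 fell in KO LV and 2 rose, 45% called in all, beside 12.3% of all genes lower, 18.6% higher and 30.9% in all. Dancr and Snhg5, both hosts of small nucleolar RNAs, fell by 1.60 ± 0.34 (adjusted p = 0.00337) and 0.93 ± 0.22 (adjusted p = 0.00604), and Snhg6 rose by 0.94 ± 0.17 (adjusted p = 0.00138). No test was made of whether the noncoding imprinted genes differ from these.

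Between ventricles the noncoding members also moved apart from the coding ones, in opposite senses. In WT the RV minus LV median was -0.55 over the noncoding and 0.05 over the coding members, -0.60 apart, and -0.36 without WT LV 2. In KO the noncoding median was 0.29 and the coding median -0.05, 0.34 apart, and without WT LV 2 and KO LV 3 the distance was -0.18. On the levels of each array, the noncoding median lay above the coding median by 1.42 to 2.81 in WT LV, 1.65 to 1.94 in WT RV, 0.11 to 1.56 in KO LV and 1.66 to 2.14 in KO RV. By this measure WT LV overlaps each of the other groups, and KO RV lies above KO LV. None of the 5 noncoding genes was called between ventricles.

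The spread between replicate pools was larger for these genes than for most coding members. The residual SD, the spread of replicate arrays around their group mean, had a median of 0.517 over the 5 noncoding genes (0.324 for Rian to 0.756 for Kcnq1ot1) and of 0.133 over the 27 coding genes (0.0536 for Ndn to 0.334 for Igf2r). The medians were 0.137 over all genes and 0.228 over the 20 noncoding RNAs outside imprinted clusters. These 20 ran from 0.0854 to 0.759, so a large spread was not particular to the imprinted noncoding genes. A standard error of 0.43 for Meg3 against 0.08 for Igf2 follows from this, and in this fit a given difference is harder to detect for the noncoding genes. The residual SD is taken over all 4 groups. For Airn and Kcnq1ot1 the spread lay mainly in LV. Airn SDs were 0.61 in WT LV and 0.83 in KO LV, against 0.074 in WT RV and 0.13 in KO RV. Those of Kcnq1ot1 were 0.74 and 1.27 against 0.11 and 0.33. The other noncoding members had SDs of 0.22 to 0.68 in the RV groups. RV standard errors of Airn and Kcnq1ot1 thus carry the LV spread.

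**Figure D4:**
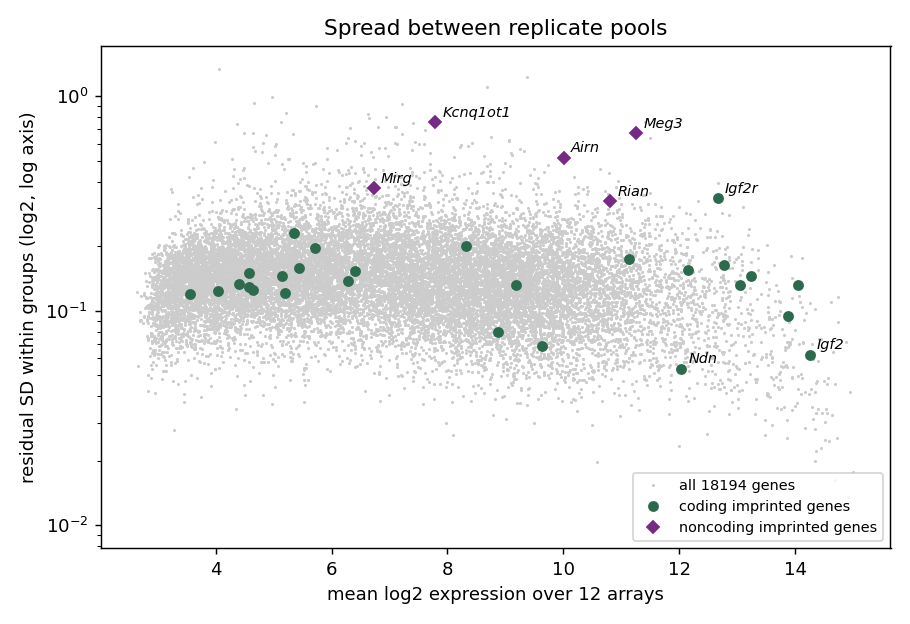
Residual SD of log2 values within groups (y axis, log scale) against the mean over 12 arrays (x axis) for all 18194 genes (grey), the coding members (green) and the noncoding members (purple). The 5 noncoding genes lie from 0.324 to 0.756, above most genes of their level, and among the coding members Igf2r is the most variable at 0.334 and Ndn the least at 0.0536.

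Some further probe sets of coding members followed the noncoding course rather than that of the brighter set of the same gene. The choice of these sets followed a look at their values. For Grb10 such a set read 8.33, 8.71 and 7.45 in WT LV and 7.39, 7.74 and 5.87 in KO LV, a difference of -1.16, where the set used gave 0.31. For Plagl1 the like set differed by -1.11 and the set used by 0.42, for Gnas by -1.03 against 0.23, and for Sgce by -0.79 against -0.02. All 4 were highest on WT LV 2 and, except for Sgce, lowest on KO LV 3. Which transcripts or transcript ends these sets read is not given in the sources used here. These sets turn the sign of the LV difference of Plagl1 and Grb10 when the sets of a gene are averaged, as given above.

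**Figure D5:**
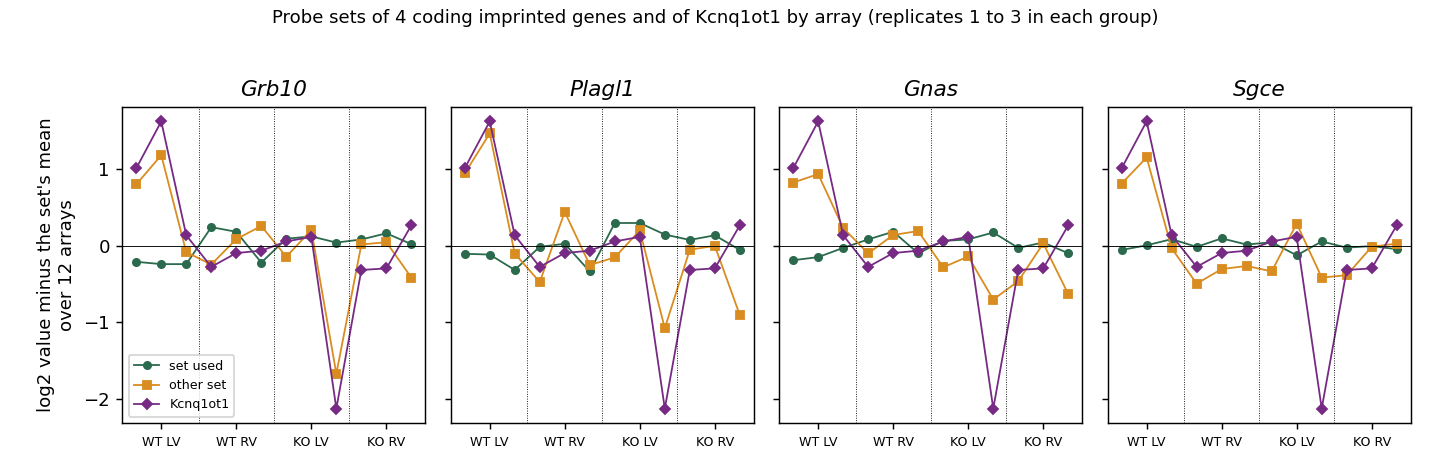
Log2 value minus the mean of the probe set over the 12 arrays (y axis), by group with replicates 1 to 3 from left to right (x axis), for the set used (green) and another set (orange) of Grb10, Plagl1, Gnas and Sgce, with Kcnq1ot1 (purple) in each panel. The orange sets rise with Kcnq1ot1 on WT LV 1 and 2, and the green ones do not.

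The remaining 12 coding members (Gnas, Impact, Magel2, Mkrn3, Nap1l5, Ndn, Nnat, Peg10, Peg12, Phlda2, Sgce and Slc22a18) were called in none of the 5 comparisons. Their KO minus WT differences ran from -0.15 (Magel2) to 0.28 (Peg12) in LV and from -0.29 (Slc22a18) to 0.28 (Nnat) in RV. The lowest adjusted p among them was 0.0576, for Peg12 in LV. Ndn, a protein of the MAGE family that restrains growth, was the steadiest of all members: 11.86 to 12.16 over the 12 arrays. Of the 32 members 22 had a mean above the table's median and 10 did not. Of the latter Zim1, Usp29, Ascl2 and Rasgrf1 were called in LV (40%), all lower, beside 12.3% of all genes called lower and 30.9% in all. Of the 22 brighter members 45.5% were called in LV. The calls of Usp29, Ascl2 and Rasgrf1 were lost after median centring or quantile normalization, as given above.

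By parental origin, 4 of the 12 measured genes known as maternally expressed rose in KO LV and 3 fell (58.3% called), with a median difference of -0.01. Ube3a is among the 4, although outside neurons it is read from both copies in most cells. Of the 19 known as paternally expressed 2 rose and 5 fell (36.8%), with a median of -0.04. Of all genes 18.6% rose and 12.3% fell, 30.9% in all. Gnas, whose transcripts differ in origin, was counted in neither.

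The interaction of genotype and ventricle, the direct test of whether the genotype difference was unlike in LV and RV, called 0 of the 32 members, beside 0.022% of all genes (0% higher and 0.022% lower). Its unadjusted limma p was under 0.05 for 4 of them, beside 2537 of all 18194 genes. Kcnq1ot1 had the largest value, 1.60 ± 0.67 (adjusted p = 0.333), and Igf2r the lowest, -0.67 ± 0.31 (adjusted p = 0.354). So the 14 calls in LV and 2 in RV do not show a difference between the ventricles. The count of 0 held in 21 of the 23 alternatives. Without WT RV 3, Igf2r (-0.96, adjusted p = 0.0386) and Grb10 (-0.44, adjusted p = 0.0359) were called, and array weights also called 2, Igf2r and Gnas.

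WT RV 3 bears on the WT comparison of ventricles as well. Without it 7 members were called, against 1 with it: Igf2r (0.83, adjusted p = 0.0175), Grb10 (0.44, adjusted p = 0.00841), Asb4, Ube3a and Peg10 higher in RV, and Dlk1 and Nnat lower. The share of all genes called without WT RV 3 is not given here. In the genotype comparison of RV, Rasgrf1 was then no longer called (-0.32, adjusted p = 0.107) and Nnat, a membrane proteolipid, was (0.45, adjusted p = 0.0460). That array shares the high poly-A control level of the WT LV arrays, and with the poly-A term 0 members were called between the ventricles of WT.

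Some genes of the imprinting machinery were called higher in KO LV. Of 27 measured genes for establishing or maintaining imprints, 10 rose in KO LV (37%) and 0 fell, with a median difference of 0.20. Of all genes 18.6% were called higher and 12.3% lower, 30.9% in all. Dnmt3a, a methyltransferase that lays down new marks, rose by 0.85 ± 0.16 (9.29 ± 0.13 to 10.14 ± 0.04, SD, n = 3 each, limma adjusted p = 0.00152), and Smchd1, a chromatin protein that helps to silence imprinted clusters, by 0.80 ± 0.13 (adjusted p = 0.000831). In RV 0 of the 27 were called by limma, beside 8.19% of all genes. The unadjusted limma p was under 0.05 for 6 of the 27, beside 4721 of all 18194 genes.

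Among 38 measured imprinted genes beyond the 32, 7 rose and 4 fell in KO LV (28.9%, beside 30.9% of all genes), and 6 rose and 1 fell in RV (18.4%, beside 8.19%). Qpct, an enzyme that cyclizes N-terminal glutamine, rose in both, from 6.72 ± 0.07 to 8.82 ± 0.20 (SD, n = 3) in LV, a difference of 2.10 ± 0.14 (SE, limma adjusted p = 5.39e-07), and by 1.89 ± 0.14 in RV (adjusted p = 1.26e-06). Ampd3, an AMP deaminase, rose by 1.31 ± 0.25 in LV (adjusted p = 0.00184), and Gatm, an enzyme of creatine synthesis, by 1.16 ± 0.17 in RV (adjusted p = 0.000804). Pon3, a lactonase, fell in LV by 0.70 ± 0.13 (adjusted p = 0.00135), and Calcr, the calcitonin receptor, fell in RV by 0.86 ± 0.20 (adjusted p = 0.0169). Between ventricles Ddc, an amine-forming decarboxylase imprinted in the embryonic heart, was higher in RV by 1.29 ± 0.11 in WT (adjusted p = 7.56e-05) and by 0.97 ± 0.11 in KO (adjusted p = 0.000472). Calcr was higher in RV by 1.13 ± 0.20 in WT (adjusted p = 0.0149).

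Other cell types moved with genotype in the same samples. In KO LV 6 of 8 macrophage markers rose, beside 18.6% of all genes (mean 7.44 to 7.57 in WT LV and 8.20 to 8.38 in KO LV), and 2 of 9 fetal liver markers, Afp and Alb, fell (22.2%), beside 12.3% of all genes. In RV 3 of the 8 macrophage markers rose, beside 4.61% of all genes, and 0 liver markers were called. The fetal liver mean was 6.12 to 7.44 in WT LV and 5.45 to 6.11 in KO LV, and it was highest, at 8.53, on WT RV 1. Of 8 erythroid markers 2 rose and 2 fell in KO LV, beside 30.9% of all genes called, and 3 fell in RV, beside 3.58%. Alas2, the enzyme that starts heme synthesis in red cells, fell by 1.06 ± 0.24 in LV (adjusted p = 0.00535) and by 1.22 ± 0.24 in RV (adjusted p = 0.00756). Of the 8 differences 3 were positive and 5 negative in each ventricle. The positive ones were the globins. From WT to KO, LV means were 10.70 and 11.49 for Hba-x, 14.46 and 14.83 for Hbb-y, and 9.09 and 9.45 for Hbb-bh1. In RV they were 10.46 and 11.16, 14.44 and 14.72, and 8.62 and 9.22. The erythroid mean was 9.47 to 9.63 in WT LV, 9.12 to 9.60 in KO LV, 9.25 to 9.80 in WT RV and 9.15 to 9.52 in KO RV, with overlap. Their part in the differences of the imprinted genes was not tested.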

How the data were processed

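RNA of 12 pools was hybridised to arrays of 45101 probe sets. The deposited values are log2 expression on which the authors ran RMA, per the submitters' processing notes; no version is named. They run from 2.42 to 15.19. Since RMA brings the distributions of the arrays together, a change common to most genes may not show. The genome build of the probe sets is not given in the sources used here. Labels gave the group of each column, and 0 columns were left unused.

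Of the probe sets 34958 had 1 gene symbol, 932 several and 9211 none. Of their gene IDs 34754 matched a RefSeq table of GRCm38.p6, and 0 symbols changed. Dim genes were kept. The test was limma 3.58.1 (lmFit and eBayes, R 4.3.3) in a single model with a mean for each group, in 5 comparisons, and p-values of all 18194 genes were adjusted by Benjamini-Hochberg, with calls under 0.05. The code was tested on simulated data. Errors beside differences are standard errors. Promoter windows came from RefSeq (GRCm38.p6), and figures from Python 3.11.15 with matplotlib 3.10.9.

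The titles number replicates 1 to 3 and do not say what a number marks. Deviations of same-numbered arrays from their group means correlated above 0.1 in all 3 pairs of WT RV with KO RV (0.111 to 0.306) and of KO LV with KO RV (0.210 to 0.291), but in 1 or 2 of 3 pairs of the other 4 combinations of groups. The numbers were taken to pair the arrays in the first 2 combinations only.

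The members, the gene lists and the settings to vary were chosen with earlier results of these data known. Values on every array are given for members called in any comparison, noncoding members and H19, Igf2, Igf2r, Dlk1, Cdkn1c, Mest, Peg3 and Grb10. Of other lists up to 2 called genes in each direction are named, by size. Settings varied were the probe set, a filter on dim genes, the normalization, the variance model, array weights, the replicate block, the groups in the fit, a poly-A control term, the threshold and the arrays left out.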

Additional observations from a re-analysis of the deposited data

How the results depend on the processing

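Of the LV genotype calls, those of Asb4 and Zim1 held in every alternative that measured them (24 and 23), that of Igf2r in 23 of 24, and those of Plagl1 and Mest in 22 of 24; those of Mirg and Rasgrf1 held in 9. The LV count of 14 went to 3 with the poly-A control term, 5 at a threshold of 0.01, 6 without WT LV 2 and KO LV 3, and 7 to 17 when single arrays were left out. The RV count of 2 went to 1 with the mean of probe sets, dim genes left out, quantile normalization, median centring, the poly-A term, the threshold of 0.01, the compared groups alone or both arrays left out, to 5 with array weights, and to 1 to 2 without single arrays. The interaction count of 0 went to 2 with array weights, and to 0 to 2 without single arrays. The WT ventricle count of 1 went to 0 with the mean of probe sets, median centring, the poly-A term, the threshold of 0.01, the compared groups alone or both arrays left out, to 7 with array weights, and to 0 to 7 without single arrays. The KO ventricle count of 1 went to 0 with the mean of probe sets, quantile normalization, the poly-A term, the threshold of 0.01 or both arrays left out, and to 0 to 1 without single arrays. With the mean of probe sets Plagl1 (-0.0567) and Grb10 (-0.0756) changed sign in LV. The distance between noncoding and coding medians in LV ran from -1.02 to -0.29. Where no cause is given, the cause was not tested. The counts in these settings stand without the share of all genes called, so they do not set the members apart.

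With the replicate block the RV genotype count was 3 (fixed, adding Zim1) or 2 (random) and the KO ventricle count 1. The block changed no other call of a member in these comparisons, where the numbers were taken to pair the arrays. In LV, where they were not taken to pair them, the count was 15 (fixed, adding Peg12) or 16 (random, adding Peg12 and Igf2). Over all groups 13 of 18 same-numbered pairs correlated above 0.1, from -0.185 to 0.423, and 9 of 12 arrays were nearest to their own number. The highest, of WT LV 3 with KO LV 3, lay in a combination not taken as paired, so the pairing remains an assumption.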
